A study of Mus musculus with 64 samples.

Results

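The genes described here act on triglyceride-rich lipoproteins and HDL at the vessel wall and at the cell surface. They were a list of 9 genes, Lpl, Lipc, Lipg, Gpihbp1, Lmf1, Angptl4, Vldlr, Lrp1 and Scarb1, each represented by the probe set with the highest mean among those annotated to that gene alone. Of the 9 genes, 8 had such a probe set, out of 18193 genes in all, and Lipc was not analysed here. The RNA came from male F2 mice of a cross between TALLYHO/JngJ (TH) and C57BL/6J (B6), kept on chow with 4% fat and killed at 24 weeks of age. All were F2 animals without overt diabetes, 8 from the high tail and 8 from the low tail of the plasma triglyceride distribution, and liver, pancreas, muscle (soleus with gastrocnemius) and adipose tissue (5 pooled fat pads) of each mouse were hybridised to separate arrays, 64 in total. The high triglyceride mice are compared with the low triglyceride mice within each tissue. The groups were the extremes of one segregating population, so that each mouse carried its own mixture of TH and B6 alleles. The paper reports that the high triglyceride mice also had heavier inguinal, subscapular and summed fat pads. Fat mass therefore cannot be told apart from triglyceride in these comparisons.

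Lipoprotein lipase (LPL) hydrolyses the triglyceride of chylomicrons and VLDL on the surface of capillaries. It is folded in the endoplasmic reticulum with the help of LMF1, is carried across the endothelium and held there by GPIHBP1, and is inactivated by ANGPTL4, which fasting and fatty acids induce. What remains of the particles is taken up by receptors that include LRP1 in liver, while the VLDL receptor (VLDLR) is known for work at the endothelium of muscle and fat, and SCARB1 takes up cholesteryl ester from HDL in liver and in steroid-producing glands. Lipg encodes endothelial lipase, which acts mainly on HDL phospholipid, and Lipc encodes hepatic lipase.

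The labelled tissues were checked against their defining transcripts. Alb lay between 15.62 and 15.82 (log2 expression value) in liver, Cela1 between 15.75 and 15.97 in pancreas, Ckm between 15.14 and 15.42 in muscle, and Adipoq between 14.82 and 15.21 in adipose tissue. The array labelled liver low replicate 7 went against its label, with 6.50 for Alb, 14.23 for Adipoq and 16.16 for Fabp4, and it was left out of the liver results unless stated. Several other arrays held transcripts of a neighbouring tissue. Star, the cholesterol carrier of steroid-producing cells, spanned 2.78 to 12.46 in adipose tissue, Ckm spanned 2.77 to 13.33 there, and Adipoq spanned 5.97 to 11.27 in muscle. The values of the markers are given below beside the genes that they touch most.

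The first question was where the genes were expressed. The lowest value that any probe set took was the same on every array of a tissue and differed between tissues (2.305 for liver, 2.348 for pancreas, 2.286 for muscle, 2.237 for adipose tissue), so the tissues were treated as normalised separately, and levels across tissues are given as a description without a test. Lpl (probe set 1415904_at) was highest in adipose tissue, at 15.31 ± 0.10 (SD, n = 16), followed by muscle at 13.49 ± 0.17 (n = 16), pancreas at 10.58 ± 0.52 (n = 16) and liver at 7.84 ± 1.22 (n = 15). Adipose tissue was above muscle in 16 of 16 mice and muscle above pancreas in 16 of 16. Pancreas was above liver in 14 of 15 mice, and the ranges of these neighbours overlapped. Scaling all arrays to one distribution, ranking the probe set within each array and using the other Lpl probe set all left this order as it was. Lipg (1421261_at) was at or close to the lowest values in every tissue, with a highest mean of 3.39 (pancreas) and means of 2.25 to 2.32 elsewhere, and it is not compared further.

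**Figure D1:**
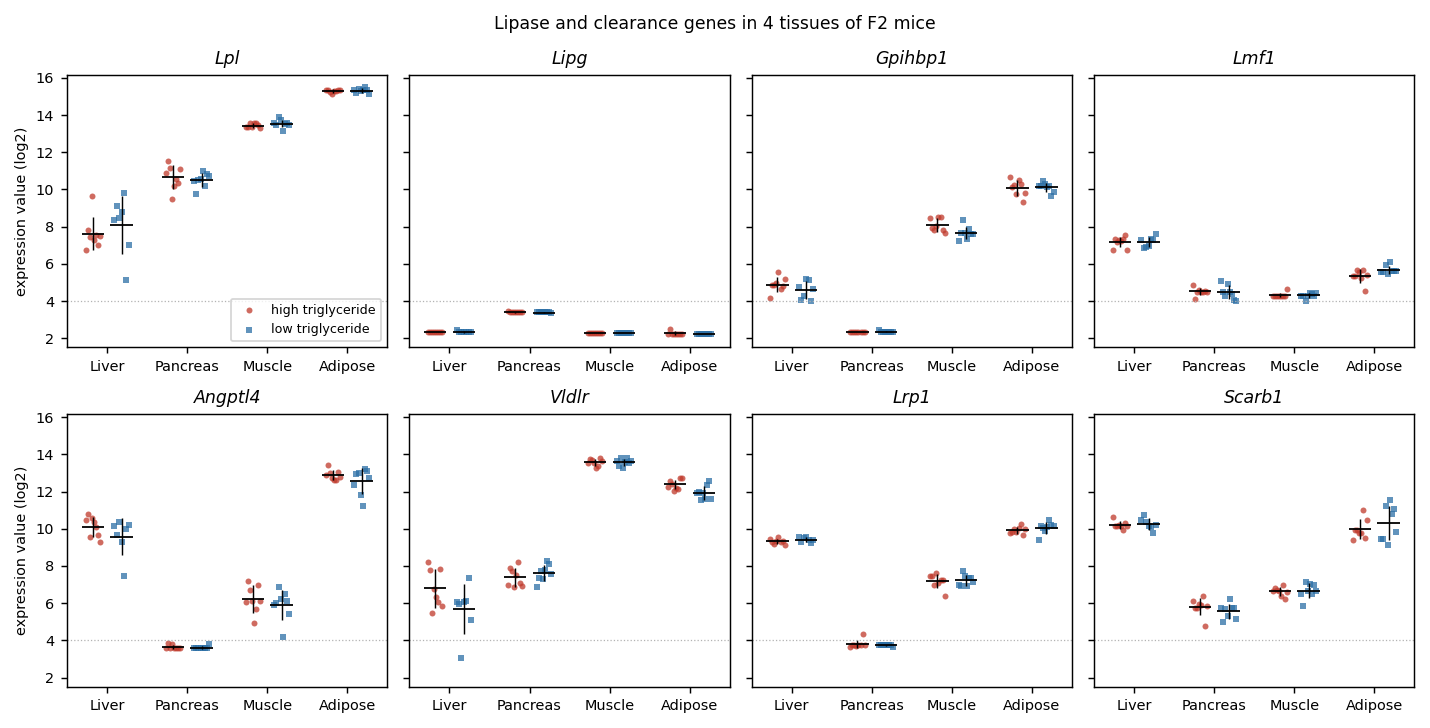
Expression values (log2) of the 8 measured genes in each array of the 4 tissues, high triglyceride mice (circles) left of low triglyceride mice (squares), with the mean (bar) and SD (line) of each group and a dotted line at 4. Lpl runs upward through liver, pancreas, muscle and adipose tissue (means 7.84, 10.58, 13.49 and 15.31), Vldlr is highest in muscle (13.58), and the 2 groups overlap in every panel.

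The genes that serve LPL did not share a single tissue order. Gpihbp1 (1453022_at), the capillary anchor of LPL, averaged 10.10 ± 0.35 in adipose tissue, 7.88 ± 0.40 in muscle and 4.74 ± 0.45 in liver, with no overlap between these ranges, and 15 of 16 pancreas arrays were at one lowest value of 2.35. Lmf1 (1424259_at), which is needed for LPL to leave the endoplasmic reticulum, was highest in liver at 7.17 ± 0.26, above every other tissue in 15 of 15 mice. Its means of 5.52 ± 0.33 in adipose tissue, 4.50 ± 0.30 in pancreas and 4.32 ± 0.12 in muscle had overlapping ranges. With all arrays scaled to one distribution pancreas (6.27) came above muscle (4.13) and adipose tissue (4.09), so that only the place of liver was kept. Angptl4 (1417130_s_at), the inhibitor, averaged 12.72 ± 0.55 in adipose tissue, 9.86 ± 0.81 in liver and 6.06 ± 0.77 in muscle, in this order in all 15 mice with these arrays, while 13 of 16 pancreas arrays were at its lowest value there of 3.57.

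The receptors fell into 2 arrangements. Vldlr (1434465_x_at) was highest in muscle, at 13.58 ± 0.19, then in adipose tissue at 12.16 ± 0.39, in pancreas at 7.51 ± 0.48 and in liver at 6.27 ± 1.28. Muscle was above adipose tissue in 16 of 16 mice, whereas pancreas was above liver in 13 of 15 and those ranges overlapped. Each of the 5 other Vldlr probe sets was also higher in muscle than in adipose tissue and lower in pancreas and liver, but their liver means of 2.31 to 3.45 were near the lowest value, so that their order of pancreas and liver is not read. Lrp1 (1448655_at) averaged 9.99 ± 0.26 in adipose tissue, 9.37 ± 0.14 in liver, 7.20 ± 0.32 in muscle and 3.77 ± 0.16 in pancreas. Adipose tissue was above liver in 14 of 15 mice, but after scaling of all arrays to one distribution liver had the higher mean. Scarb1 (1437378_x_at) averaged 10.23 ± 0.25 in liver and 10.14 ± 0.76 in adipose tissue, with liver above in 10 of 15 mice, and was lower in muscle at 6.65 ± 0.32 and in pancreas at 5.69 ± 0.44, a pair that changed places when all arrays were scaled together (6.14 in muscle and 7.34 in pancreas). The overlap of liver and adipose tissue came with adrenal transcripts, which 6 adipose arrays held. On the 10 adipose arrays without them Scarb1 was 9.15 to 9.92, below the liver of the same mouse in 10 of 10, and on the 5 with them whose liver array was used it was above the liver in 5 of 5 (10.45 to 11.52 in adipose tissue and 9.75 to 10.35 in liver).

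The second question was whether expression differed between high and low triglyceride mice. A difference was examined where the gene had a mean of 4 or more in that tissue, which held for 25 of the 32 combinations of 8 genes and 4 tissues (7 genes each in liver, muscle and adipose tissue, and 4 in pancreas). None of the 25 differences passed an adjusted p of 0.05 in limma's moderated test with Benjamini-Hochberg adjustment over 45037 probe sets, and neither did any probe set of the array in any tissue (0% called in each). Without the 6 adipose arrays that held adrenal transcripts 21 probe sets passed in adipose tissue, none of them of these genes. At an unadjusted p of 0.05 the limma fits held 0 of 7 genes in liver, against 13.6% of all probe sets there with a mean of 4 or more, and 0 of 4 in pancreas, against 6.42%. They held 1 of 7 in muscle, against 9.52%, and 2 of 7 in adipose tissue, against 9.27%. The median difference over all 8 genes lay between -0.02 and 0.04 log2 in the 4 tissues, beside 0.00 over all genes in each.

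**Figure D2:**
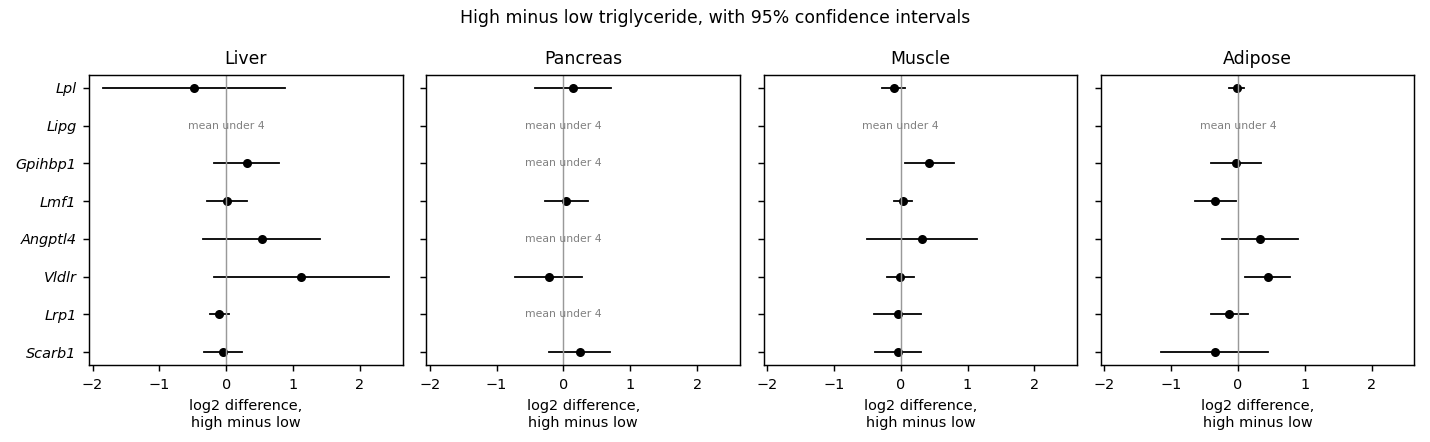
Log2 difference of each gene, high minus low triglyceride mice, in each tissue, with the 95% confidence interval from limma (points and lines), for genes with a mean of 4 or more there. Intervals leave out 0 for Gpihbp1 in muscle, and for Lmf1 and Vldlr in adipose tissue, and none of these passed an adjusted p of 0.05.

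In adipose tissue, where it was highest, Lpl lay between 15.11 and 15.37 with a median of 15.32 in the 8 high triglyceride mice, and between 15.13 and 15.51 with a median of 15.33 in the 8 low triglyceride mice. The fold of high over low was 0.99 (95% confidence interval 0.92 to 1.07). Both Lpl probe sets were among the brightest of the array there, the first at percentile 99.98 to 99.99 of every array, and how far the scale can still show a difference at that brightness was not tested. The second probe set gave a fold of 1.01 (0.87 to 1.19). In muscle Lpl had a lowest value of 13.28, a median of 13.41 and a highest of 13.58 in high triglyceride mice, and 13.16, 13.56 and 13.88 in low triglyceride mice (fold 0.93, 0.82 to 1.05). The 3 highest muscle values belonged to low triglyceride mice. In pancreas the values were 9.49, 10.71 and 11.54 in high triglyceride mice, and 9.77, 10.54 and 11.01 in low triglyceride mice, with 3 high triglyceride mice above every low one (fold 1.10, 0.75 to 1.63). The second Lpl probe set gave a fold of 1.37 in pancreas (1.04 to 1.80, limma's adjusted p = 0.795).

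Lpl in liver varied far more than elsewhere, over a range of 4.66 log2. The lowest, median and highest values were 6.74, 7.46 and 9.63 in high triglyceride mice, and 5.15, 8.46 and 9.81 in low triglyceride mice, and the interval of the fold was wide (0.72, 0.28 to 1.84). The difference of -0.48 log2 was -0.97 without low replicate 6, the lowest value, and -0.19 without low replicate 5, the highest. Skeletal muscle transcripts moved with it. The mean of 6 muscle markers was between 5.49 and 8.72 on 4 liver arrays, 2 from high and 2 from low triglyceride mice, where Lpl was 7.84 to 9.81 with a median of 9.38. On the other 11 liver arrays the markers averaged 2.49 to 3.37 and Lpl was 5.15 to 8.78 with a median of 7.43. With the muscle markers as a covariate the Lpl difference was -0.36 log2 (-1.34 to 0.62), against -0.48 (-1.84 to 0.88) without. It was -0.077 (-1.57 to 1.41) without the 5 liver arrays that held muscle or adrenal transcripts. The part of muscle RNA in these levels was not tested.

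**Figure D3:**
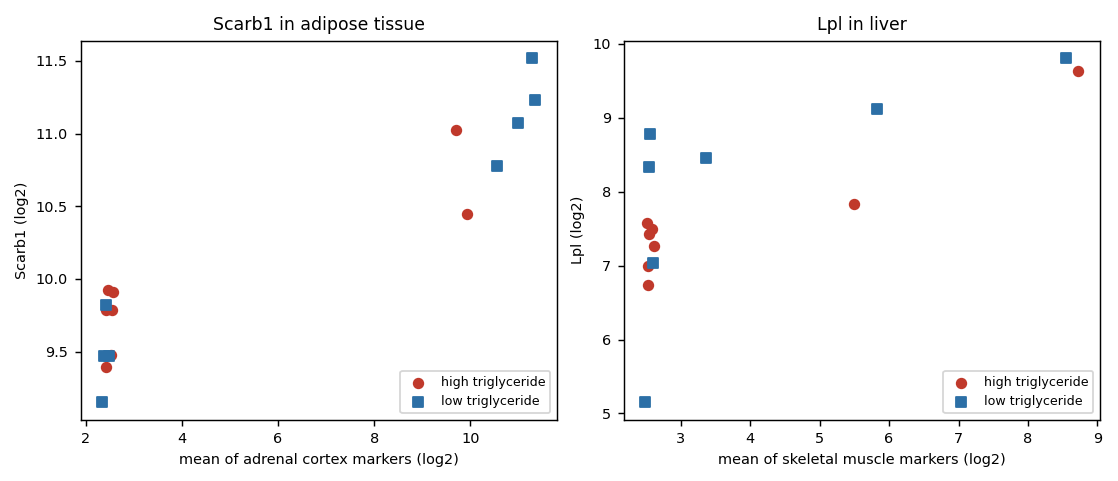
Left, Scarb1 against the mean of 5 adrenal cortex markers on the 16 adipose arrays; right, Lpl against the mean of 6 skeletal muscle markers on 15 liver arrays (all axes log2; circles, high triglyceride; squares, low triglyceride). Scarb1 is between 10.45 and 11.52 on the 6 arrays with adrenal transcripts and between 9.15 and 9.92 on the other 10, and the 2 highest liver values of Lpl, 9.63 and 9.81, are on the arrays with the most muscle transcripts.

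Among the partners of LPL, Gpihbp1 in muscle had the lowest unadjusted p. Its lowest, median and highest values were 7.64, 7.98 and 8.53 in high triglyceride mice and 7.24, 7.62 and 8.35 in low triglyceride mice. The groups overlapped, although 3 high triglyceride mice were above every low one and 4 low triglyceride mice below every high one. The fold was 1.34 (1.04 to 1.73, limma's adjusted p = 0.846). Endothelial markers did not separate the groups in muscle (mean of 10 markers 6.42 to 6.72 in high and 6.36 to 6.82 in low triglyceride mice), whereas hepatocyte markers were at 2.36 to 6.76 in high and 2.43 to 4.09 in low triglyceride muscle. With the hepatocyte markers as a covariate the Gpihbp1 difference was 0.44 log2 (0.01 to 0.87). Adipocyte markers had a median of 5.29 in high and 4.57 in low triglyceride muscle, and 6 handling and stress genes reached 9.38 in high and 7.51 in low triglyceride muscle. With adipocyte markers as a covariate the Gpihbp1 difference was 0.43 (-0.0027 to 0.87) and with endothelial markers it was 0.34 (-0.014 to 0.69), so that both intervals included 0. In adipose tissue Gpihbp1 had a median of 10.19 (9.31 to 10.66) in high and 10.17 (9.65 to 10.48) in low triglyceride mice, with a fold of 0.98 (0.76 to 1.28), and in liver the fold was 1.23 (0.88 to 1.73).

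Lmf1 had a lower mean in the adipose tissue of high triglyceride mice. The lowest, median and highest values were 4.56, 5.38 and 5.66 in high triglyceride mice and 5.46, 5.61 and 6.09 in low triglyceride mice, so that 5 high triglyceride mice were below every low one. The fold was 0.79 (0.64 to 0.98, limma's adjusted p = 0.9). Adrenal cortex transcripts were present on 2 of 8 high and 4 of 8 low triglyceride adipose arrays, and with their mean as a covariate the difference was -0.26 log2 (-0.56 to 0.04), against -0.34 without. The interval included 0 with adipocyte markers (-0.70 to 0.04) and with endothelial markers (-0.60 to 0.0083) as well. In the other tissues the Lmf1 folds were 1.01 in liver (0.82 to 1.24), 1.03 in pancreas (0.82 to 1.28) and 1.02 in muscle (0.93 to 1.12). Most muscle values lay close to 4.30, the median of both groups, and several pancreas values were equal at 4.51. Little is therefore read from the narrow interval in muscle.

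Angptl4 had a higher mean in high triglyceride mice in each of the 3 tissues with a mean of 4 or more, but no interval of this probe set left out 0. In liver the lowest, median and highest values were 9.31, 10.23 and 10.77 in high triglyceride mice and 7.44, 9.97 and 10.37 in low triglyceride mice, with 4 high triglyceride mice above every low one (fold 1.44, 0.79 to 2.64). The low triglyceride mouse at 7.44 was also the lowest in muscle (4.16) and in adipose tissue (11.24). Its liver array carried the most adrenal cortex and nearly the most muscle transcripts of the 15 (marker means 6.71 and 8.55). Hepatocyte markers averaged 14.86 on that array, within the 14.72 to 15.01 of the low triglyceride livers. Without the 5 liver arrays that held muscle or adrenal transcripts the Angptl4 difference was 0.02 log2 (-0.64 to 0.68), against 0.53 with them. The part of other tissues' RNA in these values was not tested. In adipose tissue the values were 12.60, 12.83 and 13.45 in high triglyceride mice and 11.24, 12.85 and 13.23 in low triglyceride mice (fold 1.26, 0.85 to 1.86). The medians were nearly equal there, and the 3 lowest arrays were all from low triglyceride mice. With adipocyte markers as a covariate (medians 13.77 in high and 13.54 in low triglyceride mice) the difference was 0.02 log2 (-0.55 to 0.59), against 0.33 without. Single markers of that list differed in both directions, so their mean is no plain measure of adipocyte content. A second, dimmer Angptl4 probe set (1453410_at) gave a fold of 1.70 in adipose tissue (1.01 to 2.86, limma's adjusted p = 0.9). In muscle Angptl4 was 4.92, 6.12 and 7.17 in high triglyceride mice and 4.16, 6.07 and 6.86 in low triglyceride mice (fold 1.25, 0.71 to 2.21). With adipocyte markers in muscle as a covariate the difference turned to -0.15 log2.

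Vldlr in adipose tissue was the receptor with the lowest unadjusted p. The lowest, median and highest values were 12.05, 12.32 and 12.73 in high triglyceride mice and 11.52, 11.94 and 12.57 in low triglyceride mice. The ranges overlapped, with 6 of 8 low triglyceride mice below every high one and 3 high triglyceride mice above every low one. The fold was 1.36 (1.08 to 1.72, limma's adjusted p = 0.9). Without the 6 adipose arrays that held adrenal cortex transcripts the difference was 0.50 log2 (0.17 to 0.83), against 0.44 with them, and it was 0.39 (0.06 to 0.71) with muscle markers as a covariate. Adipocyte markers had r = 0.64 with Vldlr (permutation p = 0.00823, adjusted p = 0.239, n = 16) and rho = 0.70 (permutation p = 0.00328, adjusted p = 0.234). Without the 2 farthest mice r was 0.67, and it was 0.64 within high and 0.42 within low triglyceride mice. With the mean of the adipocyte markers, which differed in both directions, as a covariate the Vldlr difference was 0.28 (-0.077 to 0.63), an interval that included 0. Macrophage markers had r = 0.62 with Vldlr (permutation p = 0.012, adjusted p = 0.239; rho = 0.615, permutation p = 0.0128, adjusted p = 0.369; n = 16; r = 0.61 without the 2 farthest mice, 0.41 within high and 0.76 within low triglyceride mice) and medians of 9.12 in high and 8.91 in low triglyceride mice, and their part was not tested. All 6 Vldlr probe sets had a positive difference in adipose tissue, between 0.06 and 0.44 log2, and for the other 5 the interval included 0. In muscle, where Vldlr was highest, the fold was 1.00 (0.86 to 1.15), and the probe sets did not point one way: they lay between -0.52 and 0.09 log2. The lowest of them (1438258_at) had a fold of 0.70 with an interval of 0.52 to 0.93 that left out 1, and it gave 1.04 (0.57 to 1.90) in adipose tissue.

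**Figure D4:**
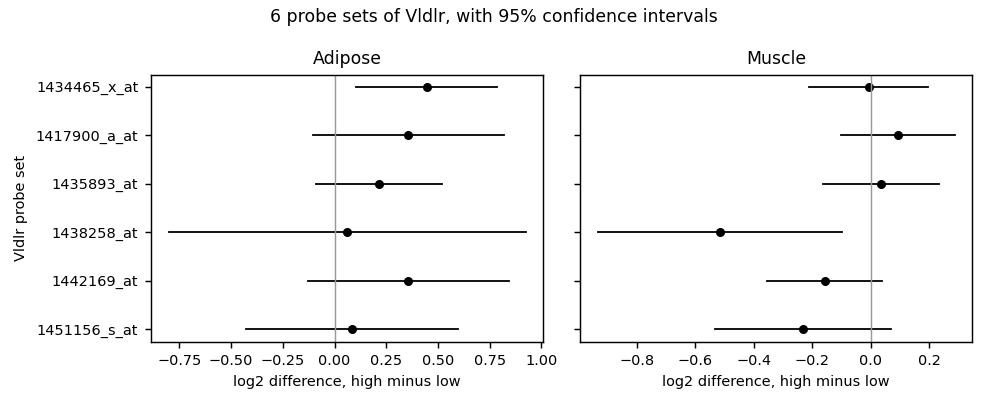
Log2 difference of each of the 6 Vldlr probe sets, high minus low triglyceride mice, in adipose tissue and muscle, with 95% confidence intervals from limma; probe sets run from the highest mean in adipose tissue (top) to the lowest. Adipose differences are all above 0 (0.06 to 0.44), while muscle differences lie on both sides of 0 (-0.52 to 0.09).

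Vldlr in liver, by 1434465_x_at, had the widest spread of any gene and tissue. The 5 other Vldlr probe sets had liver means of 2.31 to 3.45, under the limit of 4, so the liver values rest on that probe set alone. Its lowest, median and highest values were 5.50, 6.55 and 8.20 in high triglyceride mice and 3.03, 6.05 and 7.38 in low triglyceride mice. Its fold of 2.18 had an interval of 0.88 to 5.38 (limma's adjusted p = 0.802). The low triglyceride mouse at 3.03 was another with adrenal transcripts in the liver (marker mean 5.85), whereas Vldlr was 6.12 on the liver array with the most (6.71). Without the 5 liver arrays that held muscle or adrenal transcripts the Vldlr difference was 0.49 log2 (-1.04 to 2.01), against 1.12 with them. The part of other tissues' RNA in these values was not tested. In pancreas the fold was 0.86 (0.60 to 1.22).

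Lrp1 in liver was close in both groups by its brightest probe set. The values were 9.12, 9.31 and 9.57 in high triglyceride mice and 9.23, 9.42 and 9.55 in low triglyceride mice, with a fold of 0.93 (0.84 to 1.03). A dimmer Lrp1 probe set (1442849_at) gave 0.69 with a wider interval (0.39 to 1.20). The folds were 0.97 in muscle (0.76 to 1.24) and 0.91 in adipose tissue (0.75 to 1.10).

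Scarb1 in liver was likewise similar in the groups, at 9.91, 10.17 and 10.62 in high triglyceride mice and 9.75, 10.20 and 10.73 in low triglyceride mice (fold 0.97, 0.80 to 1.18). In adipose tissue it split into separate sets of arrays that did not follow triglyceride. On 6 arrays, high replicates 6 and 8 and low replicates 3, 5, 6 and 7, Scarb1 was 10.45 to 11.52, and on the other 10 it was 9.15 to 9.92. The same 6 arrays held adrenal transcripts, with a mean of 5 adrenal cortex markers between 9.69 and 11.35 against 2.35 to 2.56 on the others, and both other Scarb1 probe sets separated the same arrays. In the high triglyceride group the lowest, median and highest values were 9.40, 9.85 and 11.02, and in the low triglyceride group they were 9.15, 10.30 and 11.52, with a fold of 0.79 (0.45 to 1.37). Without the 6 arrays the difference was 0.23 log2 (-0.12 to 0.58), and with the adrenal markers as a covariate it was 0.08 (-0.23 to 0.38), so its sign turned with each. Perirenal fat was among the pooled pads. The adrenal list was chosen after these values were seen, and its part was not tested. In pancreas the Scarb1 fold was 1.18 (0.86 to 1.63), where several values of both groups were equal at 5.75, and in muscle it was 0.98 (0.77 to 1.24).

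The high minus low difference was next compared between tissues of the same mouse, in 33 combinations of a gene with 2 tissues in which it had a mean of 4 or more. No combination passed an adjusted p of 0.05 in limma. At an unadjusted p of 0.05 there were 4, of which 3 set muscle against adipose tissue, where 7 genes were compared. Over all probe sets, including those with a mean under 4, the share with such a p was 5.42% for that pair. Shares over probe sets with a mean of 4 or more in both tissues were not computed, so nothing is read from these counts. The difference of Gpihbp1 was greater in muscle than in adipose tissue by 0.45 log2 (0.13 to 0.78, limma's adjusted p = 0.746), and that of Lmf1 by 0.37 (0.03 to 0.71, limma's adjusted p = 0.874). For Vldlr muscle minus adipose tissue was -0.45 (-0.81 to -0.10, limma's adjusted p = 0.817), and pancreas minus adipose tissue was -0.67 (-1.23 to -0.10, limma's adjusted p = 0.826), where the share of all probe sets was 5.50%. The shares were 4.52%, 4.90% and 6.70% for liver minus pancreas, muscle and adipose tissue in turn, and 4.15% for pancreas minus muscle, and none of the 33 combinations reached that p in those pairs.

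Variation between mice was then examined without regard to group. Of 202 relations tested by permutation, 69 between pairs of these genes within a tissue, 100 between a gene and the mean of a marker list, and 33 between 2 tissues for one gene, none passed an adjusted p of 0.05 within its family by Pearson's r or by Spearman's rho. The lowest adjusted p by Pearson's r was shared by Angptl4 and Scarb1, each between muscle and adipose tissue of the same mice. For Scarb1 the separate sets of adipose arrays allow no pooled r. For Angptl4 the relation was positive (r = 0.72, permutation p = 0.00317, adjusted p = 0.0523; rho = 0.73, permutation p = 0.00188, adjusted p = 0.062; n = 16). The relation was 0.85 within the 8 high and 0.72 within the 8 low triglyceride mice, and r was 0.50 without the 2 mice farthest from the muscle median. On the muscle arrays Angptl4 had r = 0.598 with the adipocyte markers (permutation p = 0.0153, adjusted p = 0.254, n = 16), and 0.765 without the 2 farthest mice. Its mean was 12.72 in adipose tissue and 6.06 in muscle. The part of fat RNA in the muscle values, and so in this relation, was not tested. Gpihbp1, which is expressed by capillary endothelium, had r = 0.72 with the endothelial markers in liver (permutation p = 0.00225, adjusted p = 0.112; rho = 0.70, permutation p = 0.00469, adjusted p = 0.234; n = 15), and without the 2 farthest mice r was 0.49. In adipose tissue the same pair had r = 0.73 (permutation p = 0.00135, adjusted p = 0.112; rho = 0.52, permutation p = 0.0438, adjusted p = 0.522; n = 16), but r was 0.98 within high and -0.43 within low triglyceride mice.

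**Figure D5:**
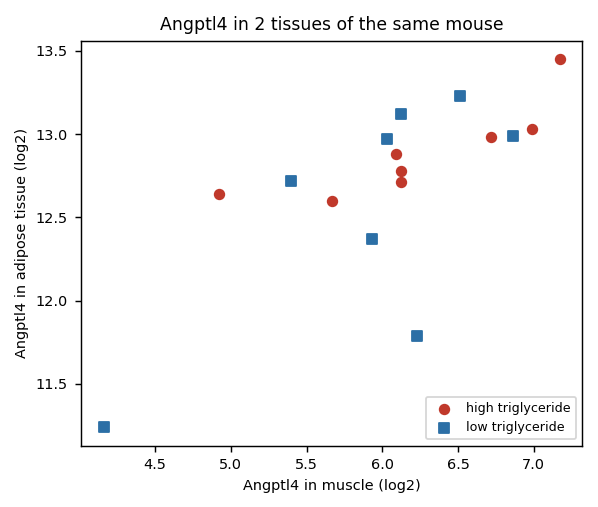
Angptl4 in muscle (x axis) against adipose tissue (y axis) of the same 16 mice, both log2 (circles, high triglyceride; squares, low triglyceride). The low triglyceride mouse at 4.16 and 11.24 is the lowest in both tissues, and the high triglyceride mouse at 7.17 and 13.45 is the highest in both.

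The genes most alike to Lpl were found by Pearson's r over the arrays of a tissue, among genes with a mean of 4 or more there, as a description with no p. In adipose tissue they were Txndc12 (0.83), Ifi27 (0.81) and Emc4 (0.81) of 10237 genes, in muscle Tspan33, Maged2 and Sestd1 (each 0.83) of 8624, and in pancreas Rev3l (0.89), Rbl2 (0.87) and Asxl2 (0.85) of 6215, over 16 arrays each. For Scarb1 in liver they were Smim13 (0.83), Pcbp4 (0.83) and Mgrn1 (0.81) of 8003 genes over 15 arrays. None of these 12 genes was among the first 3 in more than 1 of the 4 rankings.

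Other genes of lipoprotein clearance were followed as 5 lists with 80 genes, of which 68 had a probe set, covering lipase cofactors and inhibitors, lipoprotein receptors, HDL partners, PPAR targets and sterol sensors. None of the 68 passed an adjusted p of 0.05 in limma in any tissue. Of those with a mean of 4 or more, 3 had a positive and 1 a negative difference at an unadjusted p of 0.05 in liver (56 genes), 2 a positive one in pancreas (25), 2 a positive and 4 a negative one in muscle (37), and 4 a negative one in adipose tissue (50). Over all probe sets with such a mean the shares at that p were 13.6%, 6.42%, 9.52% and 9.27%, in the same order of tissues. The counts of the lists lay on both sides of these shares, and nothing is read from any of them. The median difference over the 68 genes was between -0.01 and 0.01 log2 in the 4 tissues. The lowest p belonged to Ppargc1a in adipose tissue, a coactivator of mitochondrial genes, with a difference of -1.07 log2 (-1.55 to -0.60, limma's adjusted p = 0.624). Skeletal muscle markers in adipose tissue had medians of 10.29 in high and 12.88 in low triglyceride mice, and brown adipocyte markers had medians of 5.71 in high and 6.62 in low triglyceride mice. With either list as a covariate the Ppargc1a difference was close to the one without, at -1.02 (-1.49 to -0.54) for muscle and -1.07 (-1.56 to -0.58) for brown adipocyte markers. With the mean of the adipocyte markers, which differed in both directions, as a covariate the Ppargc1a difference was -0.83 (-1.32 to -0.35). Without the arrays that held adrenal transcripts it was -1.36 (-2.08 to -0.64). Sort1, a sorting receptor that binds LPL, was next there at -0.35 (-0.62 to -0.08, limma's adjusted p = 0.9). Abcg1, which exports cholesterol to HDL, had the lowest p of the lists both in liver, at 0.15 (0.03 to 0.27, limma's adjusted p = 0.802), and in pancreas, at 0.30 (0.06 to 0.54, limma's adjusted p = 0.795). Second to it were Gpc1, a heparan sulphate proteoglycan, in liver at 0.36 (0.04 to 0.67, limma's adjusted p = 0.802), and Pcsk5, a protease that cleaves lipase inhibitors and endothelial lipase, in pancreas at 0.12 (0.02 to 0.22, limma's adjusted p = 0.795), where its mean of 2.46 was close to the lowest value. In muscle they were Lrp4, a receptor of the LDL receptor family, at -0.43 (-0.70 to -0.15, limma's adjusted p = 0.846), and Apoa1 at 1.81 (0.54 to 3.09, limma's adjusted p = 0.846). Apoa1 is one of the hepatocyte markers, whose mean in muscle had a median of 4.33 in high and 2.71 in low triglyceride mice.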

How the data were processed

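Expression was measured on Affymetrix Mouse Genome 430 2.0 arrays in 4 tissues of 16 mice. The deposited log2 values were made by the authors with gcRMA in Bioconductor (version not given in the sources used here), which corrects background, normalises and summarises probes. Values at the low end are compressed to a common floor, so differences there are understated. Array number limits the precision. Of 45101 probe sets, 64 controls were left out. Platform annotation named 1 gene for 34945 probe sets and several for 932, and 9160 were not listed. Genotypes and phenotypes were not used here, since those rows could not be tied to a mouse.

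High minus low differences were fitted within each tissue with limma 3.58.1 in R 4.3.3 (lmFit, eBayes, Benjamini-Hochberg over 45037 probe sets, threshold 0.05, 95% intervals). Correlations used 100000 two-sided permutations in numpy 2.4.6, adjusted within families. Fits and permutations were tested on simulated data. Alternatives covered normalisation, filters, probe sets, weights, a plain F test, blocks, marker covariates and left-out arrays. Named were all listed genes, the 2 clearance genes of lowest p in each tissue and the 3 genes most alike to Lpl and Scarb1. Genes and lists were chosen with earlier results of these data known.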

Additional observations from a re-analysis of the deposited data

Results flagged for a closer look

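Of 50 groups of 7 or 8 mice, 7 held a mouse whose gap to its nearest neighbour exceeded Dixon's limit, and chance flags about 1 in 20. Lpl in liver was 9.63 in high triglyceride replicate 4, with the next value at 7.84. Angptl4 in liver was 7.44 in low triglyceride replicate 5, with the next at 9.27. Scarb1 in pancreas was 4.78 in high triglyceride replicate 7, with the next at 5.75, a value that several pancreas arrays shared. Lmf1 accounted for the other 4: it was 4.56 in adipose tissue of high triglyceride replicate 7 (next 5.23), 4.11 in pancreas of high triglyceride replicate 2 (next 4.51), 4.63 in muscle of high triglyceride replicate 8 (next 4.30) and 4.01 in muscle of low triglyceride replicate 3 (next 4.27). Most muscle values of Lmf1 were close to 4.30, so that small steps stand out there.

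The array labelled liver low replicate 7, which the liver results leave out, was above every other liver array for 4 of the genes. Lpl was 15.20 there against at most 9.81, Gpihbp1 9.99 against 5.57, Angptl4 12.58 against 10.77, and Vldlr 12.91 against 8.20.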

How the results depend on the processing

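Most differences were small against their intervals, so that signs turned easily while calls did not. Over 25 gene and tissue combinations and 708 values under other settings, 644 kept their direction and stayed above an adjusted p of 0.05, 64 changed sign, and none passed that threshold in limma; 8 combinations kept their sign throughout. Vldlr in adipose tissue, Gpihbp1 in muscle and Lmf1 in adipose tissue were among these 8. The number of arrays, 7 or 8 a group, and the presence of other tissues' RNA on some arrays limit the precision. The counts of all probe sets past the threshold, 0 in each tissue, were 1261 for adipose tissue, 204 for liver, 68 for muscle and 40 for pancreas in one fit over all tissues with the mouse as a random block, where the tissues share one estimate of the spread. The count was 1 in muscle with one probe set per gene, and in adipose tissue 1 with adipocyte markers, 1 with brown adipocyte markers and 21 without the arrays that held adrenal transcripts. No highest-mean probe set of the genes described here was among those, whereas the second Angptl4 probe set was in adipose tissue in the fit over all tissues (difference 0.77, limma's adjusted p = 0.00791). That probe set was at the floor elsewhere, with means of 2.31 in liver, 2.35 in pancreas and 2.29 in muscle. Its SD was 0.00 in each of these and 0.79 in adipose tissue, so the shared spread understates that of adipose tissue. It did not pass in the fit within adipose tissue, and nothing is read from this call. Leaving out each array in turn gave counts of 0 to 1 in pancreas, 0 to 2 in muscle and 0 to 1 in adipose tissue.

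The replicate number names different mice in the high and low groups, so it was not treated as a pairing. Deviations of same-numbered high and low mice had correlations of -0.16 to 0.20 in liver, -0.30 to 0.19 in pancreas, 0.03 to 0.11 in muscle and -0.26 to 0.36 in adipose tissue. Those above 0.1 were 2 of 7 in liver, 1 of 8 in pancreas, 1 of 8 in muscle and 4 of 8 in adipose tissue. Mice of different numbers were not compared in this way. With the replicate number as a block the adipose count was 4 (0 in the other tissues), the Lmf1 difference in liver was -0.044, and the other 24 kept their sign.

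The tissue order held for 4 of 8 genes with all arrays scaled to one distribution and for 5 of 8 by percentile within the array.

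Signs that turned were as follows, as high minus low log2 differences. With the array labelled liver low replicate 7 included, Gpihbp1 in liver was -0.37, Lrp1 0.11 and Scarb1 0.21. Quantile normalisation gave 0.039 for Lpl and 0.023 for Gpihbp1 in adipose tissue, and array weights gave 0.024 for Lpl in adipose tissue and 0.012 for Vldlr in muscle. Adipocyte markers as a covariate gave 0.058 for Gpihbp1 in adipose tissue, -0.15 for Angptl4 in muscle, and -0.031 and -0.012 for Lmf1 in liver and pancreas. Endothelial markers gave 0.072 for Gpihbp1 in adipose tissue, and -0.022 and -0.097 for Lmf1 in liver and pancreas. Other probe sets gave 0.059 (liver) and 0.021 (adipose tissue) for Lpl, 0.18 and 0.018 (pancreas) and 0.093 and 0.035 (muscle) for Vldlr, 0.14 for Lrp1 in adipose tissue, and 0.046 (liver) and -0.026 (pancreas) for Scarb1. Settings chosen after the data were seen gave, in adipose tissue, 0.015 (adrenal markers as a covariate) and 0.050 (without the 6 arrays) for Lpl, and 0.076 and 0.23 for Scarb1. In liver the adrenal markers gave -0.012 for Lmf1, and leaving out the arrays with muscle or adrenal transcripts gave -0.15 for Lmf1 and 0.075 for Scarb1. Hepatocyte markers gave -0.016 for Angptl4 in muscle. Leaving out each array in turn gave ranges that crossed 0 for Lpl in adipose tissue (-0.044 to 0.011), Gpihbp1 in adipose tissue (-0.11 to 0.086), Lmf1 in liver (-0.045 to 0.081), pancreas (-0.029 to 0.13) and muscle (-0.0094 to 0.052), Vldlr in muscle (-0.052 to 0.041), Lrp1 in muscle (-0.11 to 0.066), and Scarb1 in liver (-0.13 to 0.034) and muscle (-0.15 to 0.031). Without crossing 0 the ranges were widest for Lpl in liver (-0.97 to -0.19) and pancreas (0.016 to 0.31), Angptl4 in liver (0.17 to 0.66), muscle (0.070 to 0.51) and adipose tissue (0.14 to 0.43), Vldlr in liver (0.68 to 1.41) and Scarb1 in adipose tissue (-0.51 to -0.17). The cause was not tested for any of these.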

Other observations

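Genes most alike to some of the others were looked up beyond the rule, after their values were seen, and are given as Pearson's r over the arrays of one tissue with no test. Angptl4 in muscle ran closest with Cat (0.86), which encodes catalase, and then Gnai1 (0.81), Rarres2 (0.80) and Pdk4 (0.79) (n = 16). Pdk4 encodes a kinase that restrains glucose oxidation and is a target of the same nuclear receptors as Angptl4. Gpihbp1 in muscle ran closest with Ramp2 (0.89), a coreceptor for adrenomedullin that endothelium expresses. Lpl in liver ran closest with Tbc1d2b (0.94) and then Fabp5 (0.82), a fatty acid carrier (n = 15). In adipose tissue the genes nearest to Scarb1 were Npy, Star, Chga and Scg2, which mark adrenal medulla and steroid-producing cells. That ranking pools the 6 arrays with adrenal transcripts and the others, so it restates their separation and is no further observation.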
